A study of Homo sapiens and Mus musculus with 66 samples.

Results

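The borders of the nuclear lamina (NL)-chromatin regions of unsynchronized HCT116 cells, a human colon cancer cell line, were examined for the genes, the sequence composition and the calls of other lists on each side. The borders were defined from the lamin-B1 cTSA-seq calls of the bulk HCT116 list, in which 431 regions lay on chromosomes 1 to 22 and X. Of their 862 ends, 7 lay at the end of a chromosome, so that 855 borders remained among 30353 boundaries between neighbouring 100 kb windows and among 8246 borders in all 10 lists used. At each border, 2 windows of 100 kb just outside the region and 2 just inside it were taken. The bulk calls on either side describe how the borders were chosen and are no result, and since the list holds no signal, none is given for the windows next to a border.

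In cTSA-seq, an antibody to lamin-B1 brings a peroxidase to the NL, nearby chromatin is biotinylated, and the streptavidin pull-down is sequenced beside its input. The bulk, 1e6, 200k and 50k lists came from untreated asynchronous HCT116 cells, the last 3 from 1000000, 200000 and 50000 counted cells, and the K562 list came from an untreated asynchronous human leukemia line. The G1, S and G2 lists came from untreated HCT116 cells sorted by FACS, and the 90m G1 and 180m G1 lists from HCT116 cells blocked with nocodazole for 16 h per the labels (the methods state a longer block), released and sorted for G1 90 or 180 min later. Each condition had 2 pull-down replicates except 1e6, which had 1, and the authors merged each into 1 list, so the spread between experiments is unknown. Beside the 2 pull-downs of 50k, and those of 200k, the labels hold 1 input each. For 1e6 the labels hold 1 replicate, while a supplementary legend of the study describes the signal of each of these cell numbers as a mean of 2 repeats, so which libraries entered that list, and whether bulk shares any of them, cannot be told.

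Lamina-associated domains are long stretches of chromatin that contact the meshwork of lamins under the inner nuclear membrane. They are mostly gene-poor, AT-rich and weakly transcribed, and their borders have been described as sharp changes in lamina contact at which promoters pointing away from the domain, CpG islands and binding sites of CTCF, an insulator protein that anchors chromatin loops, tend to lie. Many domains are shared between cell types, while others differ with the cell's state.

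The sequences that follow show promoters on opposite sides of HCT116 bulk borders that were also found in G1, S, G2, 180m G1 and K562. They were read from the hg19 genome. Each is 200 bases before a gene's annotated start, 5′ to 3′ on the gene's strand, with CpG dinucleotides in capitals, and none overlaps an annotated exon. Of the 3 borders found at the identical position in all 5 lists, 1 had such a gene on each side, at chr11:27200000, where the region chr11:22900001-27200000 ended. CCDC34, a coiled-coil protein gene, started outside it and BBOX1, which encodes the last enzyme of carnitine synthesis, inside it.
CCDC34, outside, chr11:27384782-27384981, minus strand: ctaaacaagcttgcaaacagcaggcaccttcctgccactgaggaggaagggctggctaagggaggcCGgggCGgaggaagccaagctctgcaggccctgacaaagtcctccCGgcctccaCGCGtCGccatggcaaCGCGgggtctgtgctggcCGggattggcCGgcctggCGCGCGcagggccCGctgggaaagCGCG
BBOX1, inside, chr11:27062072-27062271, plus strand: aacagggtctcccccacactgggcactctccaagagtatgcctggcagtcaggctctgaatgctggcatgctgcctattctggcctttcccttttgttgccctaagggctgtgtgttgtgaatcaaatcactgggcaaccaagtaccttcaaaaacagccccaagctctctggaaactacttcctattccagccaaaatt

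Because 1 pair shows little, 2 more pairs were taken, after the values were seen, from borders found within 100 kb in all 5 lists. They belong to the longest of such regions, apart from those on a chromosome from which no sequence is printed, with a gene on each side whose 200 bases hold no annotated exon, chr10:106200001-111700000 and chr9:104300001-107500000. ADD3, a gene of the membrane skeleton, and NIPSNAP3A, of the NIPSNAP family, started outside, and XPNPEP1, an aminopeptidase gene, and OR13D1, an olfactory receptor gene, inside. These sides are those of the bulk list. The chr10 border lay at the identical position in 1 of the 5 lists and the chr9 border in 3. In the other lists the border lay 100 kb away, with both genes of the pair on the same side of it.
ADD3, outside, chr10:111755926-111756125, plus strand: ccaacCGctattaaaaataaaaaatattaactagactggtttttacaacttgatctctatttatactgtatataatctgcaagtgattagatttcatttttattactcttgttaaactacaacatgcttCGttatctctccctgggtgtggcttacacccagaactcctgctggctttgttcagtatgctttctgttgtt
XPNPEP1, inside, chr10:111683312-111683511, minus strand: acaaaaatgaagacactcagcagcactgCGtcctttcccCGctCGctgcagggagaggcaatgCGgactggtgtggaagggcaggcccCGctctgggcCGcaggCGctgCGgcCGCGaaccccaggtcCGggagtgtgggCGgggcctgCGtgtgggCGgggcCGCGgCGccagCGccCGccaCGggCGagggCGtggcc
NIPSNAP3A, outside, chr9:107509764-107509963, plus strand: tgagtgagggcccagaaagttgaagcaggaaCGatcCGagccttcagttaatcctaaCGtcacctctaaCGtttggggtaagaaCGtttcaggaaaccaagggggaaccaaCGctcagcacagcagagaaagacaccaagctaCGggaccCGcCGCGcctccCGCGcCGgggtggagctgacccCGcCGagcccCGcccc
OR13D1, inside, chr9:107456599-107456798, plus strand: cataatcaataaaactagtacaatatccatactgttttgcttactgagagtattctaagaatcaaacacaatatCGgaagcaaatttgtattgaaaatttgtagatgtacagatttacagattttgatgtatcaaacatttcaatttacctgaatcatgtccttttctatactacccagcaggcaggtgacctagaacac

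The promoter outside held 16 CpGs and 68.5% GC at CCDC34 and 16 CpGs and 61% GC at NIPSNAP3A, against 0 and 1 CpGs at BBOX1 and OR13D1 inside. At the third border the order was turned, with 22 CpGs and 73.5% GC at XPNPEP1 inside and 2 CpGs and 34% GC at ADD3 outside. Thus the promoter of a gene inside a bulk region was not always the poorer in CpG among these pairs.

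Protein-coding genes were scarcer inside the border than outside it. The number of gene starts was 0.784 per window in the first window outside (SD over the 23 chromosomes 0.419, n = 827 windows) and 0.433 in the first window inside (SD 0.284, n = 842). The second window outside had 0.785 (SD 0.380, n = 818) and the second window inside 0.376 (SD 0.326, n = 827). The largest fall among these windows thus lay between the 2 that touch the border. Inside, the number fell on, to 0.299 (SD 0.266, n = 798) in the third window. Windows farther than 200 kb from any border held 0.889 gene starts outside regions and 0.243 inside them, and the border windows lay between these levels on both sides. Windows with more than 50% undetermined bases were left out, which were 28 and 13 of the first windows outside and inside, and 7 borders had no second window outside and 22 none inside.

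The share of windows with any gene start showed the same step. Of all windows of these chromosomes, 38% held the start of a protein-coding gene, while the first window outside held one at 44.9% of borders (95% Wilson interval 41.5 to 48.3) and the first window inside at 28.1% (25.2 to 31.3). Such intervals cover counting over borders only, and neighbouring borders are not independent. Of 825 borders with both first windows, 279 had fewer gene starts inside, 133 had more and 413 had the same number. The mean difference was 0.345 starts per window (SD over chromosomes 0.232), and the mean number was lower inside on 20 of 23 chromosomes. Chromosome 15 was higher inside by 0.0833 starts per window, and chromosomes 12 and 22 showed no difference, the latter with 2 borders.

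GC content moved the other way. It was 40.7% in the first window outside (SD over chromosomes 1.39) and 41.7% in the first window inside (SD 1.59), although regions as a whole were poorer in GC (39.7%) than the rest of the genome (41.4%). Coming from outside, mean GC was 41.9% in the window 1 Mb away (n = 566) and lowest in the window that touched the border (n = 827). It was higher in the first window inside (n = 842). Farther in, it was 41.2% in the second window (n = 827) and 39.5% in the window 1 Mb inside (n = 545). Shorter gaps and regions drop out with distance, so these means are not over the same borders. Single windows ranged from 33.5% to 59.3% outside and from 33.6% to 62.5% inside. Within the 825 borders with both windows the difference was 1.10 percentage points (SD over chromosomes 0.636), 62.8% of borders were higher inside, and the mean was higher inside on 23 of 23 chromosomes.

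**Figure D1:**
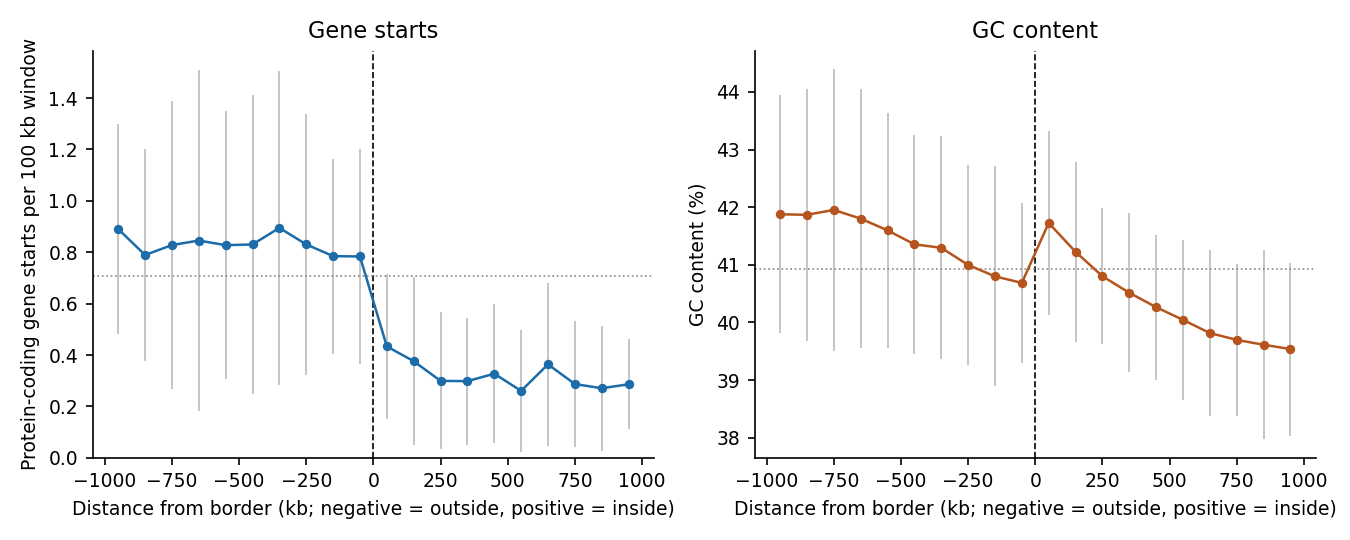
Mean number of protein-coding gene starts per 100 kb window (left) and mean GC content in percent (right) against the distance in kb of the window's centre from the HCT116 bulk borders, with outside at negative and inside at positive distances. Bars are the SD over chromosomes and dotted lines the mean of all windows. Gene starts fall from 0.784 to 0.433 across the border (dashed), while GC rises from 40.7% to 41.7% and is lower farther inside. The windows number 842 just inside and 545 farthest inside, as shorter regions drop out.

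The density of CpG dinucleotides, which are clustered in CpG islands at many promoters, differed less, with 9.60 per kb in the first window outside and 9.89 in the first window inside against 9.88 over all windows. It was 9.94 per kb in the second window outside and 9.08 in the second window inside. Within the 825 pairs, CpG density was lower inside at 436 borders and higher at 388, and the mean difference of 0.294 per kb was smaller than its SD over chromosomes of 2.93. The mean was higher inside on 15 chromosomes and lower on 8. That SD gives each chromosome the same weight, also chromosome 22 with 2 borders, where the first windows held 6.48 per kb outside and 14.5 inside.

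Matches to the CTCF consensus, searched by name on both strands, were most frequent in the windows that touched the border, though some farther windows had overlapping intervals. There were 202 matches in the first window outside, or 0.244 per window (95% exact Poisson interval 0.212 to 0.280), and 211 in the first window inside, or 0.251 (0.218 to 0.287). The second windows held 0.186 outside and 0.166 inside, and the interval of the first window inside did not overlap the 0.139 to 0.196 of the second, while those of the 2 windows outside did overlap. Farther away but within 1 Mb, the number again reached 0.222 (0.187 to 0.261) outside and 0.211 (0.174 to 0.252) inside. Both intervals overlap that of the first window on the same side. Windows farther than 200 kb from any border held 0.208 outside regions, just below the interval of the first window outside, and 0.128 inside them. The share of windows with a match was 19.7% and 20.2% in the first windows against 16.0% of all windows. A match is a resemblance in letters and not a bound site, and the consensus can itself contain a CpG, so that the counts of both are not independent.

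Of the windows around the 3 borders found at the identical position in the 5 lists, 2 held a match. They are shown with the match in capitals between 20 bases on each side, 5′ to 3′ on the minus strand of hg19, the first 4.67 kb outside the border at chr11:43300000 and the second 142 kb outside the border at chr20:6200000.
chr11:43304648-43304701: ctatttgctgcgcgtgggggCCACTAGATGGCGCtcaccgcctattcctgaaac
chr20:6058158-6058211: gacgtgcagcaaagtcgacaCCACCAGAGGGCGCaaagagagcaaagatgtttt

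Gene orientation showed at most a small preference. A gene was counted for each border it lay near. In the 2 windows outside, 681 of 1290 protein-coding genes (52.8%, 95% Wilson interval 50.1 to 55.5) were transcribed away from the region. In the 2 windows inside, 339 of 676 (50.1%, 46.4 to 53.9) pointed outward, toward the border, whether or not they reached it. The excess outside lay in the second window, with 54.7% (50.8 to 58.5) of 642 genes, and not in the first, with 50.9% (47.1 to 54.8) of 648. Over chromosomes the share outside was above 50% on 14, below on 8 and equal on 1. When the gene starting nearest to the border stood for each border, the share outside was 44.8% (40.6 to 49.0) of 543 genes, on the other side of 50%, so the direction depended on which genes were counted. At borders found in 4 or 5 of the 5 lists the share was 55.3% (49.0 to 61.4) of 246 genes, and at borders found in none 48.3% (44.0 to 52.6) of 520, with intervals that overlap.

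A protein-coding gene lay across 335 of the 855 borders, or 39.2% (95% Wilson interval 36.0 to 42.5). Over all window boundaries 42.9% were crossed, with 46.4% of 21716 boundaries outside regions and 33.7% of 7782 inside, and the borders lay between the last 2 values. The crossing genes, by coincidence also 335, made 353 gene and border pairs, since 15 genes crossed 2 borders, 1 gene crossed more, and 17 borders were crossed by more than 1 gene. They had a median length of 175 kb, against 27.3 kb for all protein-coding genes, as a long gene is more likely to span any boundary. Of 323 genes longer than 500 kb, 67 (20.7%) crossed a border, against 335 (1.67%) of all 20098 protein-coding genes.

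More of the crossing genes started outside the region and ran into it than the reverse. There were 223 pairs into the region and 130 out of it, which is 63.2% into (95% Wilson interval 58.0 to 68.0). Gene starts themselves were 1.81 times as frequent in the first window outside as in the first inside. Among pairs with a gene longer than 300 kb, 71 of 127 (55.9%) ran inward, and with a gene longer than 500 kb, 42 of 82 (51.2%) did.

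The longest crossing gene was RBFOX1, a neuronal splicing regulator of 2474 kb at chr16:5289803-7763342, which crossed 4 borders. It started in the region chr16:5100001-6300000, left it, ran through a region of 100 kb and ended within the region chr16:6700001-9000000. The end of the first of these regions was found in 4 of the 5 lists, and the other 3 borders in 1 list each. PDE4D, a cAMP phosphodiesterase gene of 1553 kb, and IL1RAPL1, a synaptic adhesion gene of 1369 kb, each crossed 2 borders, as a region lay wholly within each gene, at chr5:58900001-59500000 and chrX:29600001-29900000.

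The other long genes described here crossed 1 border each. DLG2, a postsynaptic scaffold gene of 2173 kb, had 39.4 kb outside at its start and the remaining 2134 kb inside, and its border was found in none of the 5 lists. MACROD2, an ADP-ribose hydrolase gene of 2058 kb, had 1124 kb outside and 934 kb inside, also at a border found in none. EYS, a gene of the photoreceptor matrix of 1987 kb, started inside and had its last 170 kb outside, at a border found in all 5 lists and at the identical position in 4. DAB1, an adaptor in reelin signaling of 1552 kb, ran inward at a border found in 4 lists, with 112 kb outside. FHIT, a dinucleoside hydrolase gene of 1504 kb at a common fragile site, ran inward at a border found in 2 lists. LSAMP, a neuronal adhesion gene of 1337 kb, ran outward at a border found in 1 list.

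The borders were then looked for in the other lists. A border counted as found when another list had a border facing the same way within 100 kb. Such a position lay at 4.17% of all boundaries and sides for G1, and 41.4% (95% Wilson interval 38.1 to 44.7) of the 855 bulk borders were found there. For S, 41.8% were found against a background of 4.35%, and for G2 37.8% against 4.02%. For 180m G1, 26.8% were found against 3.59%, and for K562 29.5% (26.5 to 32.6) against 6.55%. Each share was several times its background, while over 50% of the borders were missing from each of these lists.

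Lists of the same unsorted cells gave a measure of how far calls of alike samples differ. The 50k list held 49.6% of the bulk borders (46.2 to 52.9) against a background of 4.07%, the 200k list 42.7% against 4.02%, and the 1e6 list 41.8% against 3.96%. The shares in G1 and S lay within the intervals of 1e6 and 200k. The interval of G2 (34.6 to 41.1) overlapped that of 1e6 (38.5 to 45.1) and not that of 50k, and those of 180m G1 and K562 lay below all 3. The 90m G1 list held 9.01% (7.27 to 11.1) against a background of 1.74%, the lowest share of the 9 lists.

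At the identical position, 19.9% of the bulk borders were found in G1 (background 1.39%), 18.7% in S (1.45%), 18.1% in G2 (1.34%), 12.9% in 180m G1 (1.2%) and 13.0% in K562 (2.18%). Within 200 kb the shares were 52.3%, 53.7%, 49.4%, 35.4% and 39.2%.

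**Figure D2:**
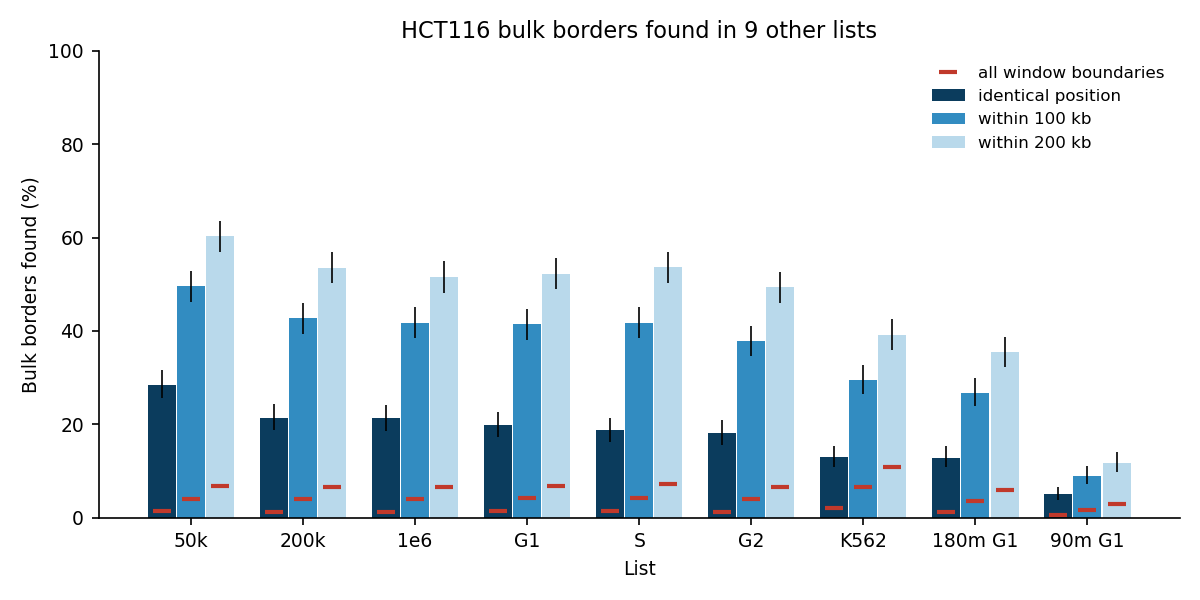
Share of the 855 HCT116 bulk borders found in each of 9 other lists, in percent, at the identical position, within 100 kb and within 200 kb, with 95% Wilson intervals over borders. Red dashes mark the share of all window boundaries and sides that lie as near to a border of that list. The share within 100 kb is highest in 50k (49.6%) and lowest in 90m G1 (9.01%).

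Counted over G1, S, G2, 180m G1 and K562, 270 borders (31.6%) were found in none of the 5 lists, 178 in 1, 112 in 2, 118 in 3, 126 in 4 and 51 (5.96%) in all 5. At the identical position, 3 borders were found in all 5 and 462 in none. G1, S and G2 held 213 borders in common, and K562 held 41.8% of those against 21.4% of the 373 borders that none of G1, S and G2 held. The background within 100 kb was 3.59% to 6.55% for single lists of the 5. No background over all boundaries was computed for several lists together, so these joint counts have no share to be set against.

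The 3 borders at the identical position were the ends of chr11:22900001-27200000 and chr11:36700001-43300000 and the start of chr20:6200001-7900000. All 3 were also found within 100 kb in 50k, 200k and 1e6 and none in 90m G1, and no protein-coding gene crossed any of them. Outside the second border API5, an inhibitor of apoptosis, started 33.5 kb away and TTC17, a gene of cilium formation, 80.5 kb away, both transcribed away from the region, and no gene started in the 2 windows inside. Outside the third, FERMT1, a gene of integrin adhesion in epithelia, started 96.1 kb away and LRRN4 165 kb away, both transcribed away, again with no gene start inside. Outside the first, CCDC34 started 185 kb away and pointed toward the region, while BBOX1 and FIBIN started 138 kb and 184 kb inside and pointed outward.

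Among the 51 borders found within 100 kb in all 5 lists, genes near the border were named after their values were seen. Sides and distances are those from the bulk border, which can lie 100 kb from the border of another list. The position was identical in 4 of the 5 lists at TAFA4, in 3 at TERF1 and EBF1, in 2 at TBX15 and in 0 at FZD8. TAFA4, a secreted neuronal protein gene, started 2.45 kb outside and crossed into the region with 219 kb of its 222 kb. TERF1, which encodes a telomere-binding protein, started 21.1 kb outside and pointed away. EBF1 and TBX15, transcription factor genes of B lymphocytes and of mesenchyme, started 26.9 kb and 32.2 kb outside and ran inward. FZD8, a Wnt receptor gene, started 31.2 kb inside and pointed outward.

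The borders were then described by the number of lists that held them. In the first window inside, gene starts numbered 0.716 per window at the borders found in none of the 5 lists, 0.503 at those in 1, and 0.216, 0.237, 0.230 and 0.160 at those in 2, 3, 4 and 5. In the first window outside they numbered 1.08 at borders found in none and between 0.632 and 0.659 at those found in 1 to 5. The ratio of outside to inside was therefore smallest at borders in 0 and 1 lists.

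GC followed the number of lists as well. At the 270 borders found in none of the 5 lists, GC was 42.5% outside and 44.7% inside, a difference within pairs of 2.298 percentage points (SD over chromosomes 1.13), with 76.6% of borders higher inside. The difference was 1.10 at borders in 1 list, 0.799 in 2 and 0.509 in 3. At the 177 borders in 4 or 5 lists, GC was 39.9% outside and 39.8% inside, a difference of -0.123 (SD 0.643), and 44.6% of borders were higher inside. Genes crossed 46.7% of the borders found in none and 29.9% of those found in 4 or 5, and 25.2% of the former and 6.78% of the latter lay within 10 Mb of a chromosome end, where GC was higher. With those distal borders left out, the GC difference over all borders was 0.974. Whether GC itself entered the calls was not tested.

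**Figure D3:**
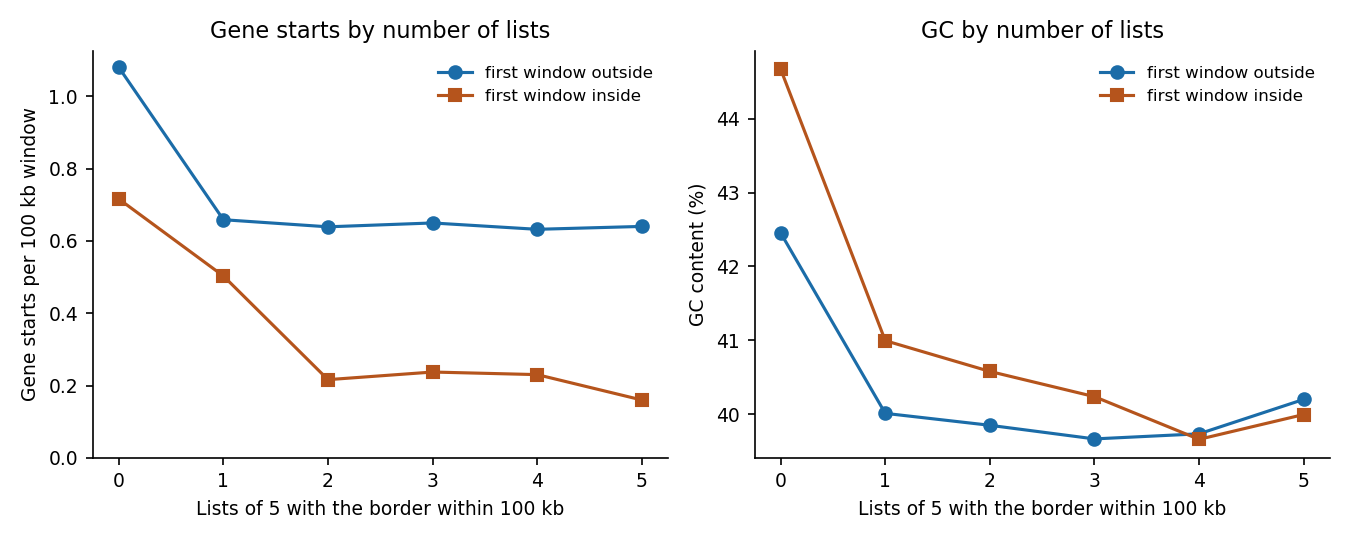
Mean gene starts per 100 kb window (left) and mean GC in percent (right) in the first window outside (circles) and inside (squares) the HCT116 bulk borders, by how many of the G1, S, G2, 180m G1 and K562 lists held the border within 100 kb. Classes hold 270, 178, 112, 118, 126 and 51 borders. GC inside exceeds GC outside at 0 to 3 lists and not at 4 and 5.

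The same measures at the borders of each other list, taken in the same way, are set beside those of bulk here. The GC difference, inside minus outside, was 0.0711 percentage points at 832 G1 borders, -0.255 at 869 S borders and -0.0945 at 808 G2 borders. It was -0.418 in 180m G1, -0.343 in K562, -0.534 in 1e6, -0.608 in 200k and -0.560 in 50k. The mean was higher inside on 14 of 23 chromosomes in G1, on 7 in S, on 2 in 1e6 and on 0 in 200k, as against 23 in bulk. In 90m G1 the difference was 2.77 (SD over chromosomes 1.10), with GC higher inside on 21 of 21 chromosomes. Bulk and 90m G1 were the lists in which GC rose into the regions by more than its SD over chromosomes. The lists share positions, so these differences between lists were not tested.

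The mean number of gene starts was lower inside in each list, but in 90m G1 the difference, inside minus outside, was -0.0544 per window and the mean was lower inside on 10 of 21 chromosomes. Gene starts were 1.79 times as frequent outside as inside at the bulk borders with both windows, 1.71 times in G1, 1.61 in S, 1.58 in G2, 1.55 in 180m G1 and 2.19 in K562. The ratio was 2.02 in 1e6, 1.89 in 200k and 1.88 in 50k, and 1.08 in 90m G1.

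**Figure D4:**
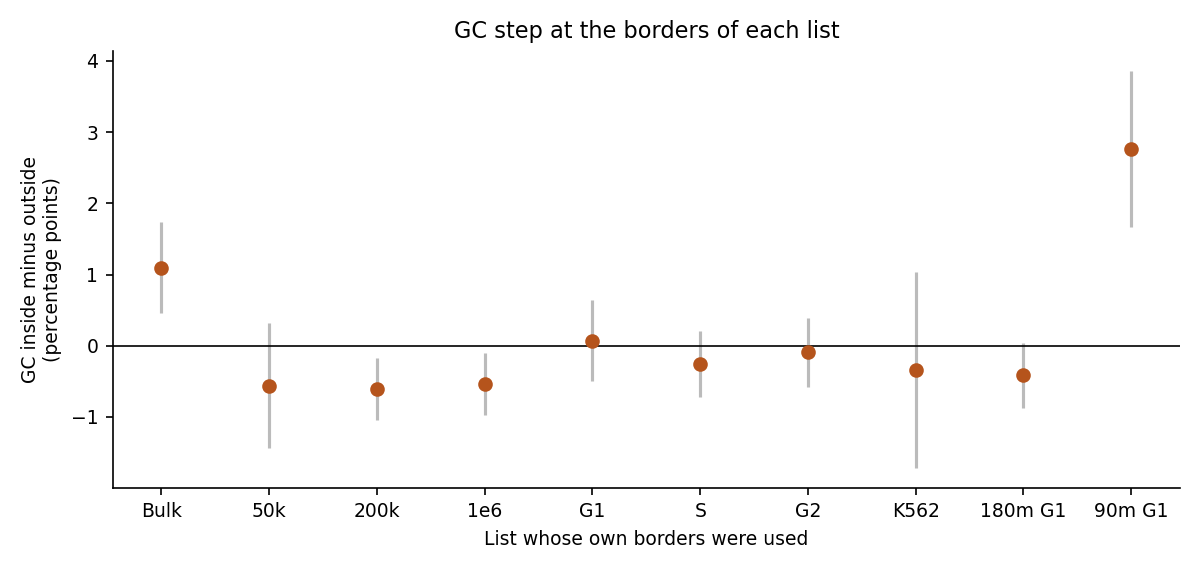
GC content of the first window inside minus that of the first window outside, in percentage points, at the borders of each list itself, as the mean over borders with the SD over chromosomes. Bulk (1.10) and 90m G1 (2.77) lie above 0 and the other 8 lists lie between -0.608 and 0.0711.

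Where the bulk border was not found within 100 kb, neither first window was called in most cases. In G1 this held for 463 of 501 such borders (92.4%), while both first windows were called at 37 (7.39%). In S neither was called at 422 of 498 (84.7%), in G2 at 482 of 532 (90.6%) and in 180m G1 at 525 of 626 (83.9%). In K562, neither was called at 363 of 603 (60.2%) and both at 233 (38.6%). K562 regions covered 1224 Mb and bulk regions 821 Mb, and the part of coverage in this was not tested. A step in the opposite direction was found at 1 such border in G1 and at 7 in K562.

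In the cell cycle lists, the called share was low next to the border and higher farther inside. Over all windows 21.7% were called in G1, and of the first windows outside, inside and the second inside 9.19%, 28.7% and 45.8% were. The share was 77.1% in the window 1 Mb inside. Only regions of at least 1 Mb reach that window, which was counted at 545 borders against 842 for the first window inside. The shares near and far from the border are thus not over the same borders. In S, with 24% of all windows called, these shares were 16.7%, 34.9%, 51.4% and 84.0%. In G2 (21.5% of all windows) they were 11.2%, 29.2%, 43.9% and 75.4%, and in 180m G1 (22.1%) 18.1%, 30.0%, 38.5% and 68.1%. So just inside the bulk border, the called shares in G1 and G2 were 28.7% and 29.2%, not far above those of the genome as a whole.

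The remaining lists differed from these in level. In 50k, where 24.1% of all windows were called, 19.5% of the first windows outside and 47.4% of the first inside were called. In 200k (23.3%) the shares were 18.5% and 39.1%, and in 1e6 (22.5%) 18.4% and 39.0%. In K562, with 43% of all windows called, they were 37.2% and 48.7%. In 90m G1, with 18.2%, they were 20.7% and 25.2%, and 34.1% in the window 1 Mb inside, the flattest of the profiles.

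**Figure D5:**
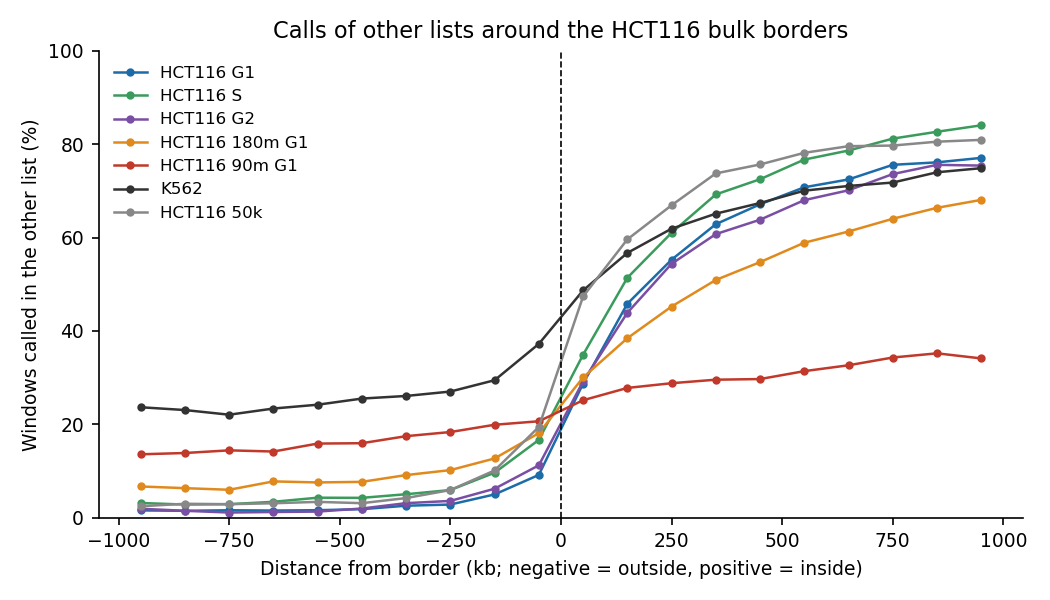
Share of windows called in 7 other lists, in percent, against the distance in kb of the window's centre from the HCT116 bulk borders. G1 rises from 9.19% just outside to 77.1% in the farthest window inside, whereas 90m G1 rises from 20.7% to 34.1%. The windows number 827 just outside, 842 just inside and 545 farthest inside, as shorter regions drop out.

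Of the borders that had a border of the same side within 1 Mb in G1 (627), 170 were identical, 384 lay inward in G1 and 73 outward, so that 84.0% of the shifted ones were inward. The inward share of the shifted borders was 74.2% in S, 81.5% in G2, 70.4% in 180m G1, 65.8% in 1e6, 67.4% in 200k, 65.4% in 50k, 54.8% in 90m G1 and 52.2% in K562. The median shift was 100 kb inward in G1, S, G2 and 180m G1 and 0 in the other 5 lists. The bulk regions covered 821 Mb, against 613 to 685 Mb in G1, S and G2, 630 Mb in 180m G1, 643 Mb in 1e6, 666 Mb in 200k, 689 Mb in 50k, 519 Mb in 90m G1 and 1224 Mb in K562, and the part of coverage in the shifts was not tested.

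A part of the borders belonged to regions that another list did not call at all. G1 calls touched the regions of 629 borders, of which 56.3% were found. None of the 226 borders of untouched regions was found. The definitions nearly fix this, as a region without a called window can hardly have its border found within 100 kb. The corresponding shares of touched regions were 54.1% in S, 52.2% in G2, 42.3% in 180m G1, 38.1% in K562, 56.7% in 1e6, 60% in 50k and 25.6% in 90m G1. Of 424 regions with 2 borders, both were found in 105 for G1, in 51 for K562, in 139 for 50k and in 12 for 90m G1.

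The found share is given next by the length and place of the region, as a description. For regions under 500 kb (126 borders), 15.1% were found in G1 and 57.9% in none of the 5 lists, and for regions of 1 to 1.9 Mb (277 borders) 50.5% and 19.1%. For regions of 2 Mb and over (269 borders) the shares were 50.9% and 27.9%. Within 10 Mb of a chromosome end, 31.2% of 138 borders were found in G1, 15.9% in G2 and 15.9% in K562, against 43.4%, 42.0% and 32.1% of the other 717. Borders crossed by a gene were found in G1 at 33.4% and uncrossed ones at 46.5%.

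Gene families are described here by where their members started. Of all 20098 protein-coding genes, 9.44% started in the 2 windows on either side of a border, 6.19% outside and 3.25% inside. A further 7.95% started deeper inside a region and 82.6% farther outside. Of 515 zinc finger genes named ZNF, most of them transcription factors in clusters, 98 (19.0%) started at a border, 57 outside and 41 inside. ZNF814 and ZNF264 on chromosome 19 started 0.442 kb and 2.87 kb from a border, and ZNF711 on chromosome X 1.00 kb from one. Of 415 olfactory receptor genes, 47 (11.3%) started at a border and 127 (30.6%) deeper inside, with OR4Q3 on chromosome 14 at 11.7 kb outside and OR4N2 at 12.8 kb inside. Members of a cluster share a border, so these counts are not over independent genes.

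The next families had shares at the border close to or under the 9.44% of all genes. Of 84 cytosolic ribosomal protein genes, 7 (8.33%) started there, among them RPL37A 36.5 kb outside and RPSA 51.8 kb inside. Farther outside lay 75 (89.3%), against 82.6% of all genes. Of 373 solute carrier genes, 34 (9.12%) started at a border, close to the share of all genes, with SLC43A3 4.95 kb inside. Of 149 keratin and keratin-associated genes 3 started at a border, with KRTAP19-8 10.8 kb outside. None of the 16 intestinal epithelial genes, such as CDX2, VIL1 and EPCAM, started at a border or inside a region. These are few genes to set beside the 82.6% of all genes that started farther outside. Of 14 genes of the nuclear envelope, SYNE3, which encodes a nesprin, started 17.0 kb outside a border, 1 lay deeper inside and 12 (85.7%) farther outside, close to the share of all genes.

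For receptor and adhesion families, the shares deep inside regions stand beside the 7.95% of all genes. Of 19 GABA-A receptor subunit genes, 12 (63.2%) started deep inside regions and 3 in the border windows inside, with GABRB1 and GABRA4 both 104 kb from a border. Of 23 cadherin genes, 11 (47.8%) started deep inside and 3 at a border, CDH26 and CDH5 at 66.5 kb and 101 kb outside and CDH6 at 106 kb inside. All 53 clustered protocadherin genes, adhesion molecules with a role in neuronal identity, started inside regions, 35 of them in border windows, because the cluster (chr5:140165721-140892544) filled the region chr5:140100001-140900000. Neither border of that region was found in any of the 9 other lists.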

How the data were processed

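Lamin-B1 cTSA-seq reads were aligned to hg19 by the authors with Bowtie2 (2.3.2), counted in windows with bedtools (2.26.0), expressed as z-scored log2 enrichment of pull-down over input, and segmented by a three-state HMM. The 10 lists used here, as deposited, hold region starts and ends in bp, in windows of 100 kb, and no read count, so the depth behind a border is unknown. Per the methods, HMM calls of replicates were intersected, although the 90m G1 and 180m G1 lists are not named as consensus lists. Smoothing by the model and the intersection of replicate calls both act on where a border falls.

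Borders were set on hg19 windows of chromosomes 1 to 22 and X. Genes came from GENCODE release 44 lifted to hg19, and GC, CpG and CTCF consensus matches from the hg19 sequence. Python 3.11.15, numpy 2.4.6, pandas 2.3.3, scipy 1.17.1 and matplotlib 3.10.9 were used, and the procedures were tested on simulated lists. No test was run, since every list is 1 merged call set. Shares have Wilson intervals of 95%, and means the SD over chromosomes. The members, measures and gene lists were chosen with earlier results of these data known. Named were the 10 longest crossing genes (1 is not reported here), genes at borders identical in 5 lists, and members of set families nearest a border.

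Alternatives were genes of all types, the nearest gene, 10 kb on each side of a crossing, other distances, isolated borders (region and gap of at least 400 kb), autosomes, joined gaps and each chromosome left out. Lists comparing K562 cTSA-seq with TSA-seq were not used here.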

Additional observations from a re-analysis of the deposited data

How the results depend on the processing

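The step in gene starts kept its direction and stayed within 1 SD over chromosomes with isolated borders or autosomes. The same held without borders within 10 Mb of chromosome ends (added after seeing the data). It lay between 0.329 and 0.364 starts per window without any 1 chromosome. With genes of all types the step kept its direction, at 0.478 starts per window against 0.345 for protein-coding genes. All types hold 63827 genes against 20098, so the SD for protein-coding genes is no measure there. In the windows taken at the borders, all types numbered 4056 outside and 3120 inside, against 1290 and 676 protein-coding genes. The fall was thus smaller in proportion with genes of all types. The GC difference stayed between 1.03 and 1.14 percentage points without any 1 chromosome, and reversed to -0.123 at borders found in at least 4 of 5 lists, a split also chosen after seeing the data. The share of genes pointing away outside reversed to 44.8% with the nearest gene only. Inside, it lay between 49.1% and 51.4% without any 1 chromosome. Crossing moved to 56.0% with genes of all types (58.1% of all boundaries) and 32.0% with 10 kb on each side (34.1%). Found shares moved to 19.9% (G1), 18.7% (S), 18.1% (G2), 12.9% (180m G1) and 13.0% (K562) at the identical position and to 52.3%, 53.7%, 49.4%, 35.4% and 39.2% within 200 kb. They were 46.0%, 46.9%, 43.4% and 30.2% in G1, S, G2 and 180m G1 at isolated borders, and 42.0% in G2 away from chromosome ends. The cause was not tested. No paired analysis was possible because each list is already merged over replicates. Borders cannot be placed more finely than 100 kb, and without depth or signal a border missing from a list cannot be told apart from one that was called less sharply.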

Other observations

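Seen from the other lists, 41.9% of the G1 borders, 40.5% of S, 39.8% of G2, 31.5% of 180m G1 and 19.0% of K562 borders lay within 100 kb of a bulk border of the same side. For 90m G1 the share was 21.6% of 356 borders. All 9 lists held 5 of the bulk borders in common, and 201 bulk borders were found in none of the 9. No background over all boundaries was computed for these joint counts.

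The 77 bulk borders found in 90m G1 had a GC difference, inside minus outside, of 2.86 percentage points and GC higher inside at 75% of pairs, against 0.919 and 61.5% at the borders not found there. For 50k the values ran the other way, with 0.0820 percentage points at borders found and 2.05 at borders not found. These differences were not tested.

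Of the borders, 428 were region starts and 427 region ends on hg19. Across the starts the number of gene starts fell by 0.429 per window and GC rose by 0.944 percentage points. Across the ends gene starts fell by 0.262 and GC rose by 1.25 percentage points. The difference between starts and ends was not tested. Chromosome 19, with 18 borders, had 2.06 gene starts per window outside and 1.5 inside, and 61.1% of its borders were found in G1. None was found in 180m G1, but that list had borders with both first windows on only 21 chromosomes. Bulk borders were found in it on every chromosome except 19 and 22. The list thus appears to hold no usable border on chromosome 19 that a bulk border could match. The 18 bulk borders there count as not found in the 26.8% given for 180m G1. Why the list lacks such a border there was not tested.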
